A study of Mus musculus with 16 samples.

Results

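Chemokine receptors guide T cells through tissues, and 8 of them, Cxcr3, Cxcr4, Cxcr5, Ccr2, Ccr4, Ccr6, Ccr8 and Ccr9, are described here in CD4+ T cells with and without Foxp3, the transcription factor that defines regulatory T cells. They were chosen by gene symbol, with earlier results of these data known, and all 8 were found among the 16475 genes measured. The source was lymph node and spleen of female C57BL/6 GFP-Foxp3 knock-in mice, 6 to 12 weeks old, whose CD4+ T cells were sorted by GFP into TFoxp3+ and TFoxp3- cells. Both subsets were measured in 2 states. Activated cells had been cultured for 36 h with recombinant human IL-2 (100 U/ml) on plates coated with 5 µg/ml of CD3 and CD28 antibodies, and cycloheximide (100 µg/ml), which fixes ribosomes on mRNA, was added when the culture ended. Ex vivo cells were processed without culture, with cycloheximide at the same concentration in all buffers and media. From each subset and state, polysome-associated mRNA (carrying 3 or more ribosomes) and cytosolic mRNA were each hybridised to 2 arrays, which gave 8 groups and 16 arrays. The study calls the 2 arrays of a group biological duplicates, and each ex vivo sample pooled RNA from 2 experiments, so an ex vivo SD is a spread between pools. All mice carried the GFP reporter, and the GFP sort separates cells by Foxp3 without telling naive from antigen-experienced cells within TFoxp3-.

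Chemokine receptors are 7-transmembrane proteins that couple to inhibitory G proteins, whose release drives actin remodelling and directed migration. Ligand-bound receptors are phosphorylated by G protein-coupled receptor kinases, bound by arrestins and internalised, and RGS proteins shorten the G protein signal. In lymphoid tissue, CXCR4 and CXCR5 place cells relative to the bone marrow, the medulla and the B cell follicle, whereas CXCR3, CCR2, CCR4, CCR6, CCR8 and CCR9 bring activated or memory cells into inflamed tissue, skin and gut. CCR4, CCR6 and CCR8 are known from regulatory T cells in particular.

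Values are log2 intensities, so a difference of 1 is a doubling, and levels of different genes are not set against each other because probes differ in brightness. Array medians ran from 4.84 to 5.06. The interquartile range across genes was 2.62 to 2.90 on activated TFoxp3+ arrays and 3.03 to 3.54 on the other arrays. What this narrower spread does to differences of weak genes was not tested. The 2 arrays of a group correlated at Pearson r of 0.887 to 0.992 across genes, lowest in activated TFoxp3+ cells. A group mean under 4.84, the lowest array median, is called low below, and the size of a difference that involves such a mean is uncertain. Whether the arrays of 2 groups overlap is given as description and is no test, since the share of all genes without overlap was not counted. Between polysome-associated and cytosolic mRNA ex vivo, 5 of the 8 members in TFoxp3+ and 4 in TFoxp3- cells did not overlap, with none called. Foxp3 itself averaged 10.09 to 10.53 in the 4 TFoxp3+ groups and 3.75 to 6.05 in the 4 TFoxp3- groups. The mean of 9 CD4 T cell markers lay between 9.72 and 10.62 on every array, with no marker low in any group. Of 8 B cell markers 4 to 8 were low in each group, and of 6 CD8 T and NK cell markers 4 or 5. Judged by the array file names in the labels, ex vivo cells, activated TFoxp3- cells and activated TFoxp3+ cells belong to 3 separate file series. Series and state, and after activation series and subset, therefore cannot be told apart.

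**Figure D1:**
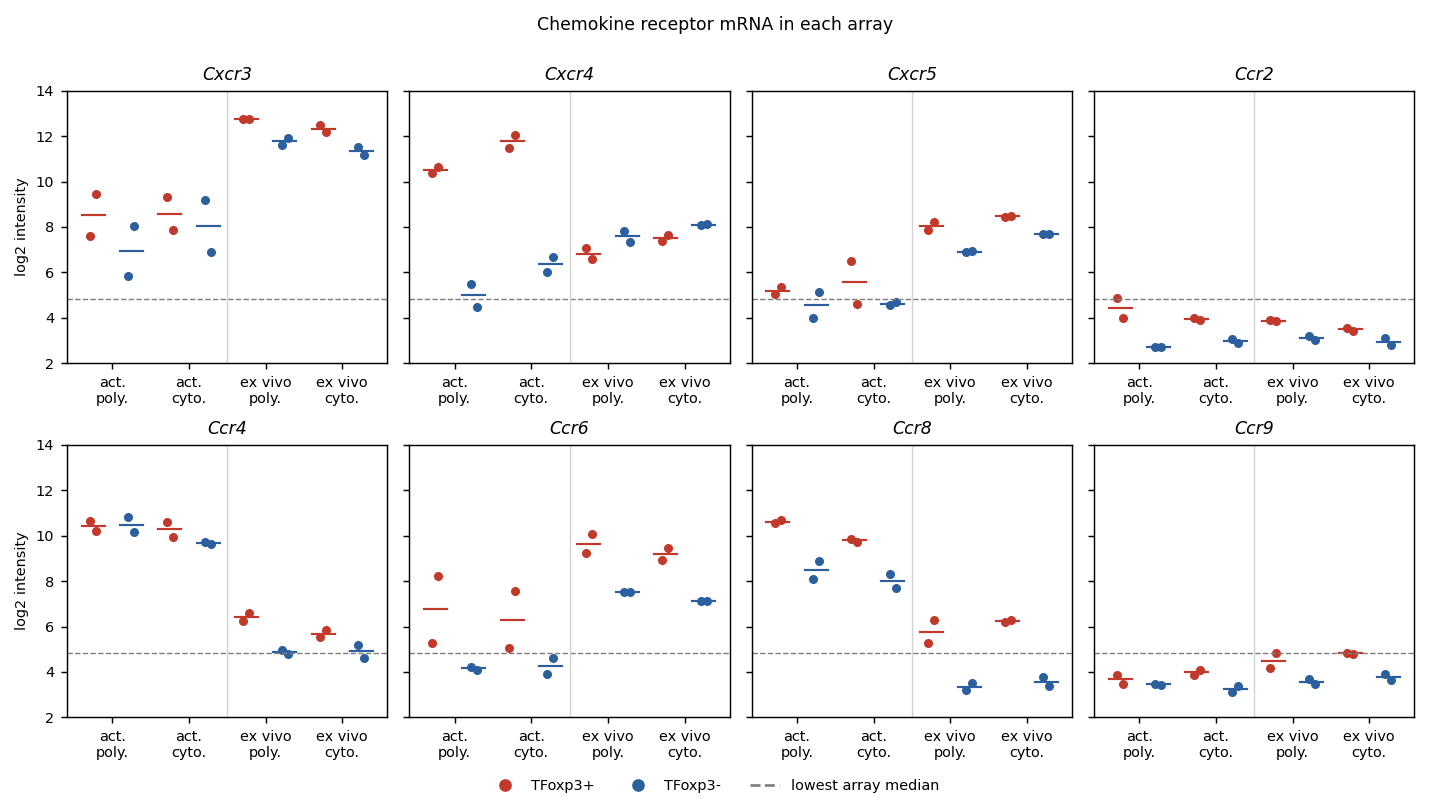
Log2 intensity of the 8 chemokine receptors (y axis) on each of the 16 arrays, by state (act., activated) and RNA fraction (poly., polysome-associated; cyto., cytosolic) on the x axis; points are arrays, bars are means of 2 arrays and the dashed line is the lowest array median, 4.84. Ccr4 and Ccr8 stood higher in all activated groups than ex vivo, Cxcr3, Cxcr5 and Ccr6 lower, and Cxcr4 was highest in activated TFoxp3+ cells and lowest in activated TFoxp3- cells.

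The order of the 8 group means followed subset and state in different ways. For Ccr8 all 4 activated groups came first, led by TFoxp3+ polysome-associated mRNA (10.62) and ended by ex vivo TFoxp3- polysome-associated mRNA (3.36), and arrays of neighbours overlapped only between the fractions of a subset. For Cxcr4 the order began with activated TFoxp3+ cells (11.77 cytosolic and 10.50 polysome-associated), ran through the 4 ex vivo groups (8.10 to 6.83) and ended with activated TFoxp3- cells (6.35 and 5.0). For Cxcr3 the ex vivo groups held the first 4 places (12.75 to 11.36) with no overlap between neighbours, and the 4 activated groups (8.59 to 6.94) overlapped from each to the next. Ccr6 and Cxcr5 began with ex vivo TFoxp3+ cells and ended with activated TFoxp3- cells (9.64 to 4.16 and 8.47 to 4.55).

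The first comparison asked how receptor mRNA differed between activated and ex vivo cells. In TFoxp3+ cells 3 of the 8 members were higher after activation in cytosolic mRNA (Cxcr4, Ccr4 and Ccr8) and 4 were lower (Cxcr3, Cxcr5, Ccr6 and Ccr9), at an adjusted p under 0.05. The same genes were called in the same directions in polysome-associated mRNA. Over all genes, 16.9% were called higher and 14.4% lower in cytosolic mRNA of TFoxp3+ cells, and 14.7% higher and 14.6% lower in polysome-associated mRNA. In TFoxp3- cells 2 members were higher (Ccr4 and Ccr8) and 4 lower (Cxcr3, Cxcr4, Cxcr5 and Ccr6), in each fraction. The background there was 13.6% higher and 12.5% lower in cytosolic mRNA, and 14.1% higher and 16.4% lower in polysome-associated mRNA. The median difference of the 8 members was -0.20 and -1.14 in cytosolic mRNA of TFoxp3+ and TFoxp3- cells, beside 0.13 and 0.11 over all genes. In the polysome fraction it was -0.13 and -1.38, beside 0.09 and 0.02.

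Ccr4, the receptor for CCL17 and CCL22, is encoded at chr9:114490316-114505476 (GRCm38.p6, RefSeq). Its cytosolic level was 10.60 and 9.96 in activated TFoxp3+ cells, against 5.53 and 5.85 ex vivo, a difference of 4.59 (standard error 0.31, 24.0-fold, adjusted p = 9.07e-06). In polysome-associated mRNA of the same subset it was 10.64 and 10.21 after activation, against 6.26 and 6.59 ex vivo (4.0, adjusted p = 1.62e-05). Every activated array lay above every ex vivo array of the subset. Cytosolic mRNA of TFoxp3- cells gave 9.73 and 9.62 after activation, against 5.19 and 4.63 ex vivo (4.76, 27.2-fold, adjusted p = 5.91e-06). Their polysome-associated mRNA gave 10.82 and 10.17 after activation, against 4.96 and 4.81 ex vivo (5.61, 48.8-fold, adjusted p = 1.39e-06). All 4 calls held under every alternative run. The 4 activated group means lay between 9.67 and 10.49, and the 3 highest of them had overlapping arrays.

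Ccr8, the receptor for CCL1 (chr9:120092133-120094906), rose in the same cells. Its cytosolic level was 9.87 and 9.73 in activated TFoxp3+ cells, against 6.21 and 6.31 ex vivo (difference 3.54, standard error 0.36, 11.6-fold, adjusted p = 7.5e-05). Polysome-associated mRNA gave 10.57 and 10.67 in activated TFoxp3+ cells, against 5.29 and 6.28 ex vivo (4.84, adjusted p = 1.23e-05). No activated array overlapped an ex vivo array of its subset. In TFoxp3- cells the cytosolic level was 8.33 and 7.70 after activation, against 3.77 and 3.40 ex vivo (4.43, adjusted p = 2.1e-05). The polysome-associated level was 8.10 and 8.90 after activation, against 3.19 and 3.53 ex vivo (5.14, adjusted p = 4.36e-06). Ex vivo TFoxp3- means were low (3.58 and 3.36), so these last sizes are uncertain. The calls held under every alternative run.

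Cxcr4, the receptor for CXCL12 (chr1:128588199-128592299), changed in opposite directions in the subsets. In TFoxp3+ cells its cytosolic level was 11.48 and 12.05 after activation, against 7.37 and 7.63 ex vivo (4.27, standard error 0.37, 19.3-fold, adjusted p = 2.99e-05). Polysome-associated mRNA gave 10.38 and 10.62 after activation, against 7.07 and 6.58 ex vivo (3.67, 12.8-fold, adjusted p = 6.8e-05). In TFoxp3- cells activation went with a lower level. The cytosolic level was 6.00 and 6.70 after activation, against 8.07 and 8.13 ex vivo (-1.75, adjusted p = 0.00576). Polysome-associated mRNA gave 5.50 and 4.49 after activation, against 7.83 and 7.35 ex vivo (-2.59, 6.03-fold, adjusted p = 0.000371). Arrays of the states did not overlap in either subset. The difference of the change between subsets, TFoxp3+ minus TFoxp3-, was 6.02 in cytosolic mRNA (95% confidence interval 4.86 to 7.17, adjusted p = 0.000804) and 6.27 in polysome-associated mRNA (5.11 to 7.42, adjusted p = 0.000706). Cxcr4 was the only member of the 8 for which this difference was called, in each fraction. Over all genes, 0.856% were called higher and 1.21% lower in cytosolic mRNA, and 1.15% and 1.43% in polysome-associated mRNA. Each of these Cxcr4 calls held under every alternative run.

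The regions before the start sites of the 3 genes that rose in activated TFoxp3+ cells are shown because Ccr4 and Ccr8 rose in both subsets, whereas Cxcr4 rose in TFoxp3+ and fell in TFoxp3- cells. They are the 250 bases upstream of the start in the RefSeq table (GRCm38.p6), written 5′ to 3′ on the gene's strand. Motifs of 3 factor families active in stimulated or regulatory T cells were searched on both strands: the AP-1 site TGANTCA, the NFAT core GGAAA and the forkhead site TGTTTAC. Capitals mark matches.
Ccr4, chr9:114496545-114496794, minus strand: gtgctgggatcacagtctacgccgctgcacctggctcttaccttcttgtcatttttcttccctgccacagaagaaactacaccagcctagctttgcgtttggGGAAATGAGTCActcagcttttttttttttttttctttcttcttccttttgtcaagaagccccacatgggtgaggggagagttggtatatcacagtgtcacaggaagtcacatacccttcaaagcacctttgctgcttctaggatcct
Ccr8, chr9:120091883-120092132, plus strand: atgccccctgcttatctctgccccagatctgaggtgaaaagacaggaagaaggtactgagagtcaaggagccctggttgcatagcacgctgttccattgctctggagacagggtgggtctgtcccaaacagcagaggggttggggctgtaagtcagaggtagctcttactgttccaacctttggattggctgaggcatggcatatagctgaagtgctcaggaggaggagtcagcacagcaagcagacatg
Cxcr4, chr1:128592300-128592549, minus strand: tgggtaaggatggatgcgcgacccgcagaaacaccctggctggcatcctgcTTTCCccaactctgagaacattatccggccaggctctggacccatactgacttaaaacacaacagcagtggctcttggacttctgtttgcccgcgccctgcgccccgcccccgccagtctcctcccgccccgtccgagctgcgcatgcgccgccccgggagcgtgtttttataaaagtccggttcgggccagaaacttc
The Ccr4 window holds the NFAT core at bases 148 to 144 before the start, joined to an AP-1 site at bases 143 to 137. Its listed start lies inside the gene's span, so the window belongs to an internal start. Over 32851 windows of this length, 6.75% held the AP-1 letters, 55.6% the NFAT core, 3.17% the forkhead site, and 0.0396% (13 windows) the joined NFAT and AP-1 letters, a combination searched for after it was seen in Ccr4. The Cxcr4 window holds 1 NFAT core, at bases 199 to 195. None of the 3 motifs is in the Ccr8 window. Windows were found for 7 of the 8 members. The others are not printed, and among them Ccr2 and Ccr6 hold NFAT cores and no AP-1 or forkhead letters, and Cxcr3 and Ccr9 hold none of the 3.

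Among the receptors that fell, Cxcr3, the receptor for CXCL9, CXCL10 and CXCL11 on type 1 effector cells (chrX:101731535-101734147), had the largest change. In polysome-associated mRNA it was 7.61 and 9.45 in activated TFoxp3+ cells, against 12.75 and 12.75 ex vivo (-4.22, standard error 0.87, 18.7-fold, adjusted p = 0.00448). In TFoxp3- cells the same fraction gave 5.85 and 8.03 after activation, against 11.63 and 11.90 ex vivo (-4.83, 28.4-fold, adjusted p = 0.0016). Cytosolic mRNA gave 9.30 and 7.88 in activated TFoxp3+ cells, against 12.47 and 12.16 ex vivo (-3.72, adjusted p = 0.00842). In cytosolic mRNA of TFoxp3- cells the values were 9.20 and 6.91 after activation, against 11.54 and 11.18 ex vivo (-3.30, adjusted p = 0.0169). Activated arrays were widely spread, with an SD of 1.0 to 1.62 in the 4 activated groups, against at most 0.26 ex vivo, and all lay below all ex vivo arrays. Polysome-associated calls held under every alternative run. The cytosolic call was lost without array 1 (-3.57) or 15 (-3.02) in TFoxp3+ cells, and without array 3 (-3.12), 7 (-3.48) or 11 (-2.16) in TFoxp3- cells.

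Cxcr5, the receptor for CXCL13 that takes cells to the B cell follicle (chr9:44511787-44526444), fell by 2.90 in cytosolic mRNA of TFoxp3+ cells, to 6.51 and 4.61 after activation, against 8.44 and 8.50 ex vivo (standard error 0.52, adjusted p = 0.00197). Polysome-associated mRNA of TFoxp3+ cells gave 5.03 and 5.37 after activation, against 7.88 and 8.24 ex vivo (-2.86, adjusted p = 0.00216). In TFoxp3- cells the cytosolic level was 4.55 and 4.68 after activation, against 7.69 and 7.67 ex vivo (-3.06, adjusted p = 0.00155). The polysome-associated level was 3.98 and 5.13 after activation, against 6.92 and 6.93 ex vivo (-2.37, adjusted p = 0.00513). No arrays of the states overlapped. Means of activated TFoxp3- cells were low (4.62 and 4.55). The cytosolic call in TFoxp3+ cells was lost when only the groups compared were fitted, and the other 3 calls held under every alternative run. B cells also express Cxcr5 and Ccr6. The mean of the 8 B cell markers was 3.66 to 4.60 in activated arrays and 4.5 to 5.19 ex vivo, with Cd79b, a part of the B cell receptor, at 3.85 to 6.36 in activated groups and 8.05 to 8.99 ex vivo, and Ms4a1 (CD20) low in every group. Their part in the result was not tested, and in bulk samples fewer cells of a type and less RNA per cell cannot be told apart.

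Ccr6, the receptor for CCL20 on Th17 and regulatory cells (chr17:8236041-8258519), was lower in all 4 comparisons, and its activated TFoxp3+ arrays lay far apart. In cytosolic mRNA of TFoxp3+ cells it was 5.05 and 7.56 after activation, against 8.92 and 9.45 ex vivo (-2.88, standard error 0.89, adjusted p = 0.0302). In polysome-associated mRNA of TFoxp3+ cells it was 5.29 and 8.24 after activation, against 9.22 and 10.07 ex vivo (-2.87, adjusted p = 0.0321). In both fractions the lower array was 13 or 14 and the higher one 15 or 16. TFoxp3- cells gave 3.90 and 4.62 after activation in cytosolic mRNA, against 7.14 and 7.11 ex vivo (-2.86, adjusted p = 0.0356). Their polysome-associated level was 4.22 and 4.10 after activation, against 7.54 and 7.54 ex vivo (-3.38, adjusted p = 0.0139). Means of activated TFoxp3- cells were low (4.26 and 4.16), so the sizes in this subset are uncertain. The TFoxp3+ calls were lost without array 1, 5 or 13 in cytosolic mRNA (-3.15 to -1.63) and without array 2, 6 or 14 in polysome-associated mRNA (-3.30 to -1.40), and the polysome-associated difference was -4.35 without array 16. Both were also lost with only the groups compared, and the cytosolic one with cyclic loess. In TFoxp3- cells the cytosolic call was lost without any 1 of arrays 1, 3, 4, 5, 7, 8, 9 and 11 (-3.23 to -2.50), and the polysome-associated call without array 4, 8, 10 or 12 (-3.44 to -3.32).

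The remaining members were low in every group. Ccr9, the receptor for CCL25 in small intestine and thymus (chr9:123767211-123783457), was 3.85 and 4.10 in cytosolic mRNA of activated TFoxp3+ cells, against 4.84 and 4.81 ex vivo (-0.85, standard error 0.25, adjusted p = 0.0268), and the call was lost without array 1 (-0.84), 5 (-0.87) or 13 (-0.73). In polysome-associated mRNA it was 3.88 and 3.46, against 4.16 and 4.82 ex vivo (-0.82, adjusted p = 0.0327), and the call was lost without array 6 (-0.49) or 16 (-0.61). Both calls were lost with array weights and with only the groups compared. In TFoxp3- cells its differences were -0.53 (cytosolic, adjusted p = 0.149) and -0.13 (polysome-associated, adjusted p = 0.749). Ccr2, the receptor for CCL2 and other monocyte chemoattractants (chr9:124101918-124109140), gave differences of 0.45 and 0.56 in cytosolic and polysome-associated mRNA of TFoxp3+ cells and 0.04 and -0.39 in TFoxp3- cells, and none was called (adjusted p from 0.145 to 0.926). The polysome-associated value in TFoxp3+ cells rested on single arrays: it was 1.01 and called without array 16, and 0.11 without array 14. Without array 16 the difference of this change between subsets was called as well (1.40, against 0.95 with all arrays).

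**Figure D2:**
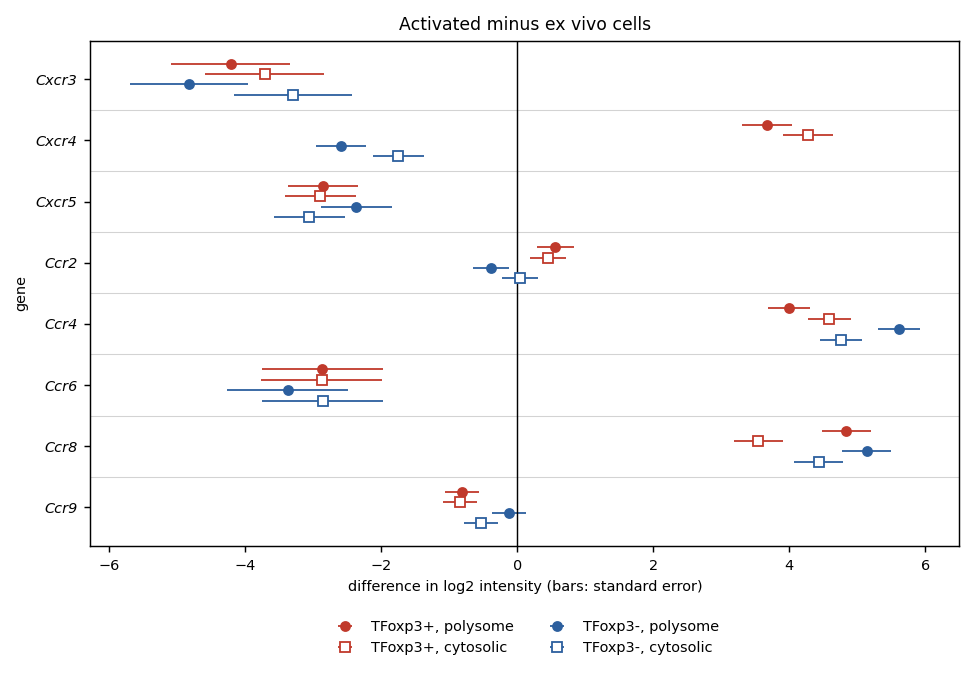
Activated minus ex vivo difference in log2 intensity (x axis) for the 8 chemokine receptors (y axis), by subset and RNA fraction; points are fitted differences of groups of 2 arrays and bars are standard errors. Ccr4 and Ccr8 lie right of 0 in all 4 comparisons (3.54 to 5.61), whereas Cxcr4 lies at 4.27 and 3.67 in TFoxp3+ cells and at -1.75 and -2.59 in TFoxp3- cells.

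The second comparison set TFoxp3+ against TFoxp3- cells, at an adjusted p under 0.15. In ex vivo cells 2 members were called higher in TFoxp3+ cells in cytosolic mRNA (Ccr8 and Ccr9) and 3 in polysome-associated mRNA (Ccr4, Ccr8 and Ccr9), and no member was called lower. Over all genes, 2.06% were called higher and 2.58% lower in cytosolic mRNA, and 1.62% and 2.25% in polysome-associated mRNA. After activation 4 members were higher in each fraction: Cxcr4, Ccr2, Ccr8 and Ccr9 in cytosolic mRNA, and Cxcr4, Ccr2, Ccr6 and Ccr8 in polysome-associated mRNA. The background was then 13.8% higher and 12.2% lower in cytosolic mRNA, and 18.7% and 13.7% in polysome-associated mRNA. At an unadjusted p under 0.05 limma passed 4 and 6 members ex vivo and 5 and 4 after activation, in cytosolic and polysome-associated mRNA, and none of these was lower in TFoxp3+ cells. Of all genes, 12.4% and 12.1% passed it ex vivo and 28.8% and 32.8% after activation, in either direction. Median differences of the members were 0.87 and 1.06 ex vivo and 0.95 and 1.65 after activation, beside 0.10, 0.09, 0.13 and 0.20 over all genes.

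Ccr8 was higher in TFoxp3+ cells in all 4 comparisons. Ex vivo its cytosolic level was 6.21 and 6.31 in TFoxp3+ cells, against 3.77 and 3.40 in TFoxp3- cells (2.68, standard error 0.36, 6.39-fold, adjusted p = 0.00489). The polysome-associated level ex vivo was 5.29 and 6.28, against 3.19 and 3.53 (2.43, adjusted p = 0.0106). Ex vivo TFoxp3- means were low (3.58 and 3.36), so the sizes that involve them in this paragraph are uncertain. Activated TFoxp3+ cells had 9.87 and 9.73, against 8.33 and 7.70 in activated TFoxp3- cells, in cytosolic mRNA (1.79, 3.45-fold, adjusted p = 0.0117). In polysome-associated mRNA they had 10.57 and 10.67, against 8.10 and 8.90 (2.12, 4.35-fold, adjusted p = 0.00425). The subsets' arrays did not overlap in any of the 4. The cytosolic call after activation was lost when only the groups compared were fitted, and the other 3 calls held under every alternative run. The change with activation of Ccr8 differed between subsets by -0.89 in cytosolic mRNA (95% confidence interval -2.02 to 0.24) and -0.31 in polysome-associated mRNA (-1.44 to 0.82), and neither was called.

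The difference between subsets in Cxcr4 was the largest of the 8 members in activated cells. Cytosolic mRNA gave 11.48 and 12.05 in activated TFoxp3+ cells, against 6.00 and 6.70 in activated TFoxp3- cells (5.42, 42.8-fold, adjusted p = 3.26e-05). Polysome-associated mRNA gave 10.38 and 10.62, against 5.50 and 4.49 (5.50, 45.4-fold, adjusted p = 4.46e-05). Ex vivo the order was the reverse, 7.37 and 7.63 in TFoxp3+ cells, against 8.07 and 8.13 in TFoxp3- cells, with differences of -0.60 in cytosolic (adjusted p = 0.583) and -0.76 in polysome-associated mRNA (adjusted p = 0.451). Arrays of the subsets did not overlap in either fraction ex vivo. Both ex vivo differences were called lower with only the groups compared and with array weights.

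Ccr4 was 6.26 and 6.59 in polysome-associated mRNA of ex vivo TFoxp3+ cells, against 4.96 and 4.81 in TFoxp3- cells (1.54, standard error 0.31, adjusted p = 0.0379), and the call was lost without array 4 (1.62), 6 (1.38) or 8 (1.46). Its cytosolic difference ex vivo was 0.78 (adjusted p = 0.314), and after activation differences were 0.61 in cytosolic mRNA and -0.07 in polysome-associated mRNA (adjusted p = 0.226 and 0.895). The cytosolic difference ex vivo was called with only the groups compared and with array weights, and that after activation with cyclic loess (1.10) and without array 15 (0.93), whereas it was 0.29 without array 13.

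Ccr6 was higher in TFoxp3+ cells by 2.06, 2.04, 2.10 and 2.61 in cytosolic ex vivo, cytosolic activated, polysome-associated ex vivo and polysome-associated activated mRNA, and with all arrays and the design used throughout was called only in the last (adjusted p = 0.0686). Without array 16 that difference was 1.13, without array 14 it was 4.09, and the call was lost without array 10 (2.67), 12 (2.55) or 16 and with only the groups compared. Ex vivo the arrays of Ccr6 were 8.92 and 9.45 in TFoxp3+ cells, against 7.14 and 7.11 in TFoxp3- cells, in cytosolic mRNA, with adjusted p = 0.37. The spread behind that p is shared by the 8 groups, with an SD of 1.77 and 2.09 in activated TFoxp3+ cells and at most 0.60 ex vivo. Both ex vivo differences were called with only the groups compared, with array weights and without array 14 or 16. The cytosolic difference after activation was 3.30 and called without array 13, and 0.79 without array 15. It was also called with cyclic loess, with an intensity trend, among genes above the median mean and without array 14 or 16. Activated TFoxp3- means of Ccr6 were low (4.26 and 4.16), so the sizes of its differences after activation are uncertain in both fractions. Of the 8 B cell markers, Cd79b (6.14 in activated TFoxp3+ cells, against 3.85 in activated TFoxp3- cells, 2.30, adjusted p = 0.0366) and Blk (0.79, adjusted p = 0.0681) were also higher in polysome-associated mRNA. In cytosolic mRNA 3 were higher, and none was called lower in either. Of all genes 18.7% were called higher in polysome-associated and 13.8% in cytosolic mRNA, so the polysome-associated count is near the background. Ex vivo 2 and 3 of the markers were lower in TFoxp3+ cells, in cytosolic and polysome-associated mRNA, and none higher. The share of all genes called lower ex vivo was 2.58% and 2.25%. The mean of the 8 was 4.18 to 4.60 on activated TFoxp3+ arrays and 3.66 to 4.20 on activated TFoxp3- arrays. Their part in the result was not tested.

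Ccr9 was 4.84 and 4.81 in cytosolic mRNA of ex vivo TFoxp3+ cells, against 3.93 and 3.65 in TFoxp3- cells (1.04, adjusted p = 0.0753), and the call was lost without array 1, 3, 5 or 7 (0.90 to 1.17). Its polysome-associated difference ex vivo was 0.92 (adjusted p = 0.124), a call lost without any 1 of arrays 1, 3, 4, 5, 6, 7 and 8 (0.58 to 1.02), with median centring and with cyclic loess. After activation it was called in cytosolic mRNA (0.72, adjusted p = 0.0919), where the call was lost without array 9 (0.60) or 15 (0.60), with cyclic loess (0.44), median centring, array weights and only the groups compared. Its polysome-associated difference after activation was 0.22 (adjusted p = 0.563). Ccr2 was 4.89 and 3.98 in polysome-associated mRNA of activated TFoxp3+ cells, against 2.72 and 2.73 in activated TFoxp3- cells (1.71, adjusted p = 0.00287), and 3.99 and 3.90, against 3.09 and 2.90, in cytosolic mRNA (0.95, adjusted p = 0.045). Both calls were lost with only the groups compared, and the cytosolic one with array weights. Ex vivo Ccr2 differed by 0.54 and 0.76 and was called only with the groups compared alone, with array weights and, in polysome-associated mRNA, without array 14 or 16. These levels of Ccr2 and Ccr9 were low in both subsets. The mean of 11 myeloid markers was 4.76 to 5.08 in activated TFoxp3+ arrays and 4.02 to 4.42 in activated TFoxp3- arrays, and 6 markers were low in activated TFoxp3+ and 9 in activated TFoxp3- groups. Of the 11 markers, 3 were called higher in activated TFoxp3+ cells in cytosolic and 2 in polysome-associated mRNA, and none lower. Of all genes 13.8% and 18.7% were called higher. In cytosolic and polysome-associated mRNA, Lyz2 (lysozyme) averaged 6.55 (SD 1.18) and 7.60 (0.23) in activated TFoxp3+ and 5.05 (0.33) and 5.66 (1.94) in activated TFoxp3- groups. In the same order of fractions, Cd68 averaged 6.85 (SD 0.73) and 6.45 (0.53) in activated TFoxp3+ groups. In activated TFoxp3- groups it averaged 3.02 (0.48) and 4.40 (0.04), both low. Itgax was lower in TFoxp3+ cells in polysome-associated mRNA (4.08, against 4.28) and Adgre1 in cytosolic mRNA (3.09, against 3.27). Their part in the result was not tested.

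With all arrays Cxcr3 and Cxcr5 were called in none of the 4 comparisons. Cxcr3 was higher in TFoxp3+ cells by 0.95 and 0.98 ex vivo, and its ex vivo arrays did not overlap between subsets. The 95% confidence intervals were -0.95 to 2.86 and -0.92 to 2.89. They rest on 1 spread shared by the 8 groups, and the SD of Cxcr3 was 1.0 to 1.62 in activated groups, against at most 0.26 ex vivo. The ex vivo intervals therefore carry the spread of activated arrays as well. After activation Cxcr3 differed by 0.53 in cytosolic and 1.59 in polysome-associated mRNA (adjusted p = 0.726 and 0.224). Leaving out an activated array of the fraction gave -0.61 to 1.68 and 0.50 to 2.68, with a call in polysome-associated mRNA without array 12 (2.68) or 14 (2.51). Cxcr5 was higher by 0.79 and 1.14 ex vivo and by 0.95 and 0.64 after activation, with adjusted p from 0.254 to 0.616. Its cytosolic difference after activation was 1.90 and called without array 15, and near 0 without array 13. Ex vivo both genes were called in both fractions with only the groups compared, and with array weights Cxcr5 in both and Cxcr3 in cytosolic mRNA. Without array 13 or 15, Cxcr5 was also called ex vivo in polysome-associated mRNA.

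**Figure D3:**
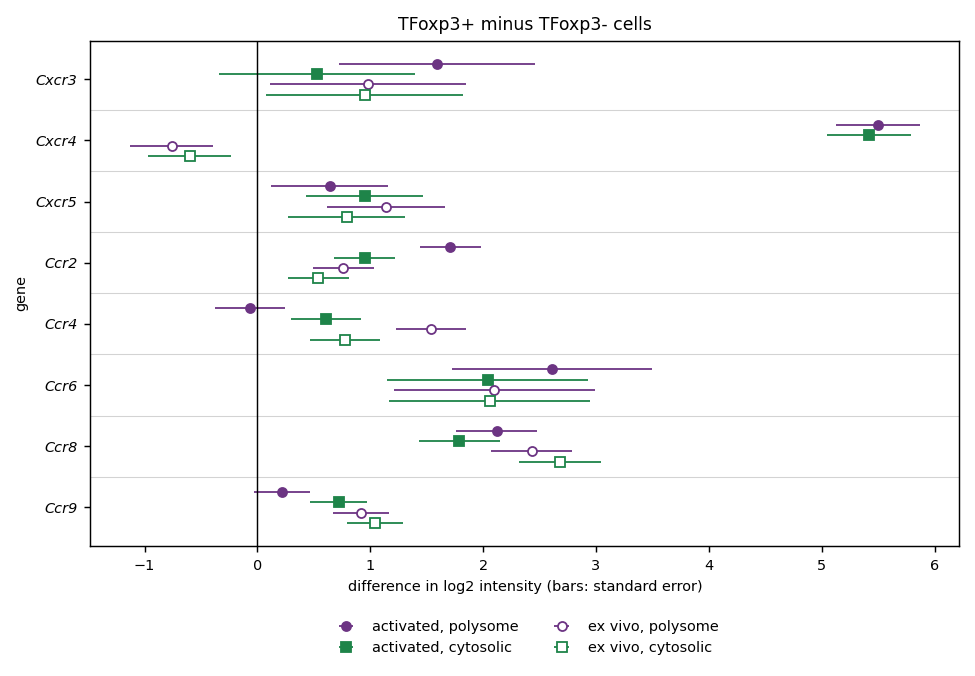
TFoxp3+ minus TFoxp3- difference in log2 intensity (x axis) for the 8 chemokine receptors (y axis), by state and RNA fraction; points are fitted differences of groups of 2 arrays and bars are standard errors. Ccr8 lies right of 0 in all 4 comparisons (1.79 to 2.68), and Cxcr4 lies at 5.42 and 5.50 in activated cells and at -0.60 and -0.76 ex vivo.

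The third comparison set polysome-associated against cytosolic mRNA, which asks whether a receptor's mRNA is taken up by ribosomes beyond its abundance. No member was called in any of the 4 comparisons at an adjusted p under 0.05. At an unadjusted p under 0.05 limma passed 1 member in ex vivo TFoxp3+ cells (Ccr4), 2 in activated TFoxp3+ cells (Cxcr4 and Ccr8), 0 in ex vivo TFoxp3- cells and 2 in activated TFoxp3- cells (Cxcr4 and Ccr4). The share of all genes passing that p was 4.69%, 20.3%, 4.25% and 18.1% in the same order. At the adjusted threshold, 0.0303% of all genes were called higher and 0.00607% lower in ex vivo TFoxp3+ cells, 2.31% and 2.36% in activated TFoxp3+ cells, 0.0303% and 0.0303% in ex vivo TFoxp3- cells, and 2.36% and 1.52% in activated TFoxp3- cells. Cxcr4 had the largest differences in activated cells. Its polysome-associated level was 10.38 and 10.62, against a cytosolic level of 11.48 and 12.05, in TFoxp3+ cells (-1.27, adjusted p = 0.0795). In TFoxp3- cells it was 5.50 and 4.49, against 6.00 and 6.70 (-1.35, adjusted p = 0.0742). No arrays of the fractions overlapped, and a call was gained without array 10 (-1.27) or 12 (-1.27) in TFoxp3+ cells and without array 10 (-1.86) in TFoxp3- cells. Ccr8 differed by 0.82 in activated TFoxp3+ cells (adjusted p = 0.236) and Ccr4 by 0.82 in activated TFoxp3- cells (adjusted p = 0.187). Ccr2 differed by 0.49 in activated TFoxp3+ cells, and by 0.94, a call, without array 16.

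Differential translation is the polysome minus cytosolic difference in TFoxp3+ cells minus that in TFoxp3- cells. It was called for no member ex vivo (threshold 0.3) or after activation (threshold 0.15), and limma passed 0 members at an unadjusted p under 0.05 in each state, where 1.17% of all genes passed it ex vivo (193 genes) and 16.5% after activation. Of all genes 0% were called in either direction ex vivo, and 3.83% higher and 3.65% lower after activation. After activation the member values ran from -0.68 for Ccr4 (95% confidence interval -1.65 to 0.29) to 1.05 for Cxcr3 (-1.64 to 3.75), with 0.09 for Cxcr4 (-1.07 to 1.24) and 0.33 for Ccr8 (-0.80 to 1.46). Ccr2 had 0.76, and 1.21, a call, without array 16. Ex vivo they ran from -0.25 for Ccr8 to 0.76 for Ccr4. An analysis of covariance of the anota type, which regresses polysome-associated on cytosolic mRNA with 1 slope per gene over array pairs taken by consecutive number, which the labels do not give as pairs, called Cxcr3 in both states (2.14, adjusted p = 0.0207 after activation; 1.97, adjusted p = 0.29 ex vivo) and Cxcr4 after activation (9.90, adjusted p = 0.112). The fitted slopes were -1.03 for Cxcr3 and -0.81 for Cxcr4, outside the limits of -0.5 and 1.5 that the study's methods set for such models.

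**Figure D4:**
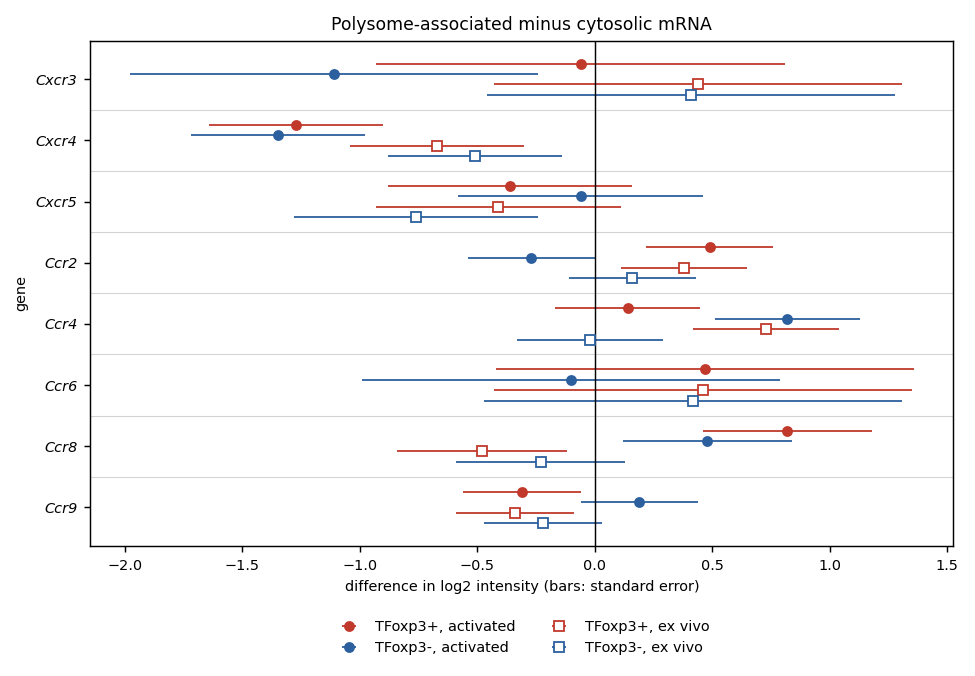
Polysome-associated minus cytosolic difference in log2 intensity (x axis) for the 8 chemokine receptors (y axis), by subset and state; points are fitted differences of groups of 2 arrays and bars are standard errors. Cxcr4 lies left of 0 in all 4 comparisons, at -1.27 and -1.35 in activated cells, and no difference passed the threshold.

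The ligands of these receptors were also on the arrays (14 genes). Ccl1, a ligand of Ccr8, had the largest difference among the ligands called. It averaged 9.87 in cytosolic mRNA of activated TFoxp3- cells, against 4.69 ex vivo (5.18, adjusted p = 0.00105). In their polysome-associated mRNA it averaged 10.70, against 5.01 (5.69, adjusted p = 0.000386). In activated TFoxp3+ cells Ccl1 averaged 6.12, against 9.87 in activated TFoxp3- cells, in cytosolic mRNA (-3.75, adjusted p = 0.0155), and 7.80, against 10.70, in polysome-associated mRNA (-2.90, adjusted p = 0.0367). The direction was opposite to that of its receptor, which was higher in TFoxp3+ cells. Ccl17, a ligand of Ccr4, rose by 2.16 in each fraction of TFoxp3- cells with activation (adjusted p = 0.00222 and 0.0016). Cxcl12, the ligand of Cxcr4, was low in polysome-associated mRNA of activated cells, at 4.10 in TFoxp3+ and 3.56 in TFoxp3- cells (0.55, adjusted p = 0.0943). With activation 2 ligands were higher and 1 lower in each fraction of TFoxp3+ cells, and in TFoxp3- cells 2 were higher in cytosolic and 3 in polysome-associated mRNA, with none lower, of 14 ligands. Over all genes 16.9% and 14.7% were higher in TFoxp3+ cells and 13.6% and 14.1% in TFoxp3- cells, so the counts of higher ligands are near the background. The lower shares were 14.4% and 14.6% in TFoxp3+ and 12.5% and 16.4% in TFoxp3- cells.

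Of 15 other chemokine receptors 14 were measured. In activated cells 6 were higher in TFoxp3+ than in TFoxp3- cells in cytosolic mRNA and 3 in polysome-associated mRNA, with none lower, beside 13.8% and 18.7% of all genes called higher, so the polysome-associated count is near the background. Median differences were 0.62 and 0.45, beside 0.13 and 0.20 over all genes. Ccr7, which holds naive and central memory cells in lymph nodes, was lower in ex vivo TFoxp3+ cells, at 9.03, against 11.48 in TFoxp3- cells, in cytosolic mRNA (-2.45, adjusted p = 0.15, just under the threshold). Ccr10 fell with activation in both subsets and fractions, by 2.91 and 3.17 in TFoxp3+ cells and by 3.12 and 2.71 in TFoxp3- cells. Cxcr6 and Ccrl2 were the other receptors whose change with activation differed between subsets, by 4.14 (adjusted p = 0.0302) and -2.36 (adjusted p = 0.031) in polysome-associated mRNA.

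Among other egress and homing molecules several were higher in activated TFoxp3+ cells, as Cxcr4 was. S1pr1, the sphingosine 1-phosphate receptor by which T cells leave lymph nodes, averaged 9.27 in activated TFoxp3+ cells, against 5.63 in activated TFoxp3- cells, in cytosolic mRNA (3.63, adjusted p = 0.00583), and its change with activation differed between subsets by 5.55 (adjusted p = 0.0144). Selplg, which carries the P-selectin ligand, averaged 10.79, against 9.33 (1.46, adjusted p = 0.00437), and Itgb7, the integrin chain of gut homing, 11.70, against 9.92 (1.78, adjusted p = 0.0034). Of 8 measured genes of this list, 5 were higher and 0 lower in cytosolic mRNA of activated TFoxp3+ cells, and 4 higher and 2 lower in polysome-associated mRNA, beside 13.8% and 18.7% of all genes called higher and 12.2% and 13.7% lower, with median differences of 1.24 and 1.52, beside 0.13 and 0.20 over all genes.

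Of 18 genes of receptor signalling and desensitization, 1 was higher and 8 lower with activation in cytosolic mRNA of TFoxp3+ cells, and 3 higher and 7 lower in TFoxp3- cells. Of all genes 16.9% and 13.6% were higher there and 14.4% and 12.5% lower. In polysome-associated mRNA 1 was higher and 4 lower in TFoxp3+ cells, and 4 higher and 5 lower in TFoxp3- cells. The shares of all genes in that fraction were 14.7% and 14.1% higher and 14.6% and 16.4% lower. Grk6, a receptor kinase, fell in both subsets and both fractions (-1.90 to -3.60). Rgs1, an RGS protein that ends Gαi signals, rose by 4.46 (adjusted p = 0.0001) and Rgs16 by 4.76 (adjusted p = 8.52e-06) in cytosolic mRNA of TFoxp3- cells. In activated TFoxp3+ cells Rgs16 was lower than in activated TFoxp3- cells, by 2.75 in cytosolic mRNA (adjusted p = 0.00102). Elmo1, a partner of DOCK2 in Rac activation, was higher in activated TFoxp3+ cells in cytosolic mRNA (9.94, against 7.32 in activated TFoxp3- cells; 2.62, adjusted p = 0.00317). Differential translation after activation was called for Arrb2, an arrestin (2.16, adjusted p = 0.0208), and for Elmo1 (-3.01, adjusted p = 0.0259).

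Across the 16 arrays, levels of some members went together, which describes 8 groups of 2 arrays rather than independent samples. Pearson r was 0.932 between Ccr4 and Ccr8, 0.935 between Cxcr3 and Cxcr5 and -0.865 between Cxcr3 and Ccr4. Ccr6 reached 0.811 with Cxcr3, 0.787 with Cxcr5 and 0.764 with Ccr9. Cxcr4 reached at most 0.691, with Ccr2. Genes with the most similar patterns were Rnf123 (r = 0.992) for Ccr4, Coro2b (0.987) for Ccr6, Izumo1r and Il2rb (0.971 and 0.969) for Ccr8, Aqp3 (0.936) for Cxcr4, Lce1i and Rusc1 (0.975 and 0.973) for Cxcr3, and H2-M3 (0.961) for Cxcr5. For Ccr2 and Ccr9 they were Cldn3 (0.920) and Endod1 (0.915), with C1qb at 0.902 for Ccr9. After H2-M3, the genes most like Cxcr5 were Junb (0.958) and Ighm (0.9495), an immunoglobulin heavy chain gene of B cells. Whether B cells had a part in this likeness was not tested.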

How the data were processed

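The authors amplified RNA with a whole-transcriptome kit, hybridised 16 Affymetrix arrays and deposited log2 intensities from rma (affy in R), with probes regrouped by Entrez gene. The sources used here do not say whether the states were normalized in 1 run. The values were used as deposited. Without 64 control probe sets, 16475 of 16539 features remained and were tested. Array numbers are those of the sample titles. Detection values were not used. Precision is limited by the number of arrays. Groups were taken from the labels.

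Groups were compared with limma 3.58.1 in R 4.3.3, with 8 group means over all 16 arrays (8 residual degrees of freedom), two-sided moderated tests and Benjamini-Hochberg adjustment over all genes. The thresholds were 0.15 for the subset comparisons and for translation after activation, 0.3 for translation ex vivo and 0.05 otherwise. These follow the study's false discovery rates where it gives one. Standard errors and 95% confidence intervals come from the fit, and an SD is that of 2 arrays. The 8 groups share 1 estimate of the spread per gene, although activated arrays varied more. Array weights, which are higher where arrays vary less, were 0.347 to 0.632 for activated and 1.58 to 2.96 for ex vivo arrays. The anota-RVM of the study was not run.

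Members and gene lists were chosen with earlier results of these data known. Named genes were all members, up to 3 called genes per list and comparison by adjusted p, and the genes most like each member (Pearson r over 16 arrays), with vomeronasal and odorant receptors, predicted genes and unnamed features left out. Alternatives were cyclic loess, median centring, genes above the median mean, a trend of variance with intensity, array weights, only the groups compared, leaving out each array, and, for translation, an anota-type analysis of covariance. The fit was tested on simulated data. Promoter windows came from RefSeq (GRCm38.p6). Tables and figures used Python 3.11.15, pandas 2.3.3 and matplotlib 3.10.9.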

Additional observations from a re-analysis of the deposited data

Results flagged for a closer look

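The change of Cxcr4 with activation differed between the subsets, by a test of the difference itself. TFoxp3+ minus TFoxp3- it was 6.02 on the log2 scale in cytosolic mRNA (adjusted p = 0.000804) and 6.27 in polysome-associated mRNA (adjusted p = 0.000706), with limma. All 4 activated TFoxp3+ arrays were higher than the ex vivo TFoxp3+ arrays of their fraction, and all 4 activated TFoxp3- arrays lower than the ex vivo TFoxp3- arrays. Array file series and subset cannot be told apart after activation.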

How the results depend on the processing

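Counts below are of the 8 receptors called. Ccr2 and Ccr9 lie under the median mean, so a count among genes above the median mean leaves them out. Of 41 member calls, 24 held under every alternative run, and no called value changed sign. TFoxp3+ against TFoxp3- cells ex vivo depended most on the fit. In cytosolic mRNA 2 were called, and 8 with only the groups compared, 8 with array weights and 1 among genes above the median mean, with 1 to 3 when an array was left out. In polysome-associated mRNA 3 were called, and 8 with only the groups compared and 7 with array weights, with 1 to 5 when an array was left out. After activation 4 were called in each fraction, and with only the groups compared 1 in cytosolic and 2 in polysome-associated mRNA, and with array weights 2 in cytosolic mRNA. Leaving out an array gave 3 to 5 in each. For activation in TFoxp3+ cells, 7 were called in cytosolic mRNA, and 4 with only the groups compared, with 4 to 7 when an array was left out. For polysome-associated minus cytosolic mRNA after activation, 0 were called and 0 to 1 when an array was left out, in TFoxp3+ and in TFoxp3- cells. Differential translation gave 0, with 1 ex vivo and 2 after activation by the anota-type covariance, and 0 to 1 after activation when an array was left out. The difference of the change with activation in polysome-associated mRNA gave 1, and 1 to 2 when an array was left out. Where leaving out an array left 1 in a group, it was assumed to vary like the other groups. No paired analysis was possible because the labels give no replicate number shared between groups, and the consecutive array numbers taken as pairs in the anota-type covariance are not known to be pairs. Precision was limited by 2 arrays a group and by the low signals of Ccr2 and Ccr9. The anota-type covariance called 22 genes higher and 42 lower ex vivo among all genes, where limma called 0, and 1509 and 1480 after activation, where limma called 631 and 601.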
